A study of Mus musculus with 9 samples.

Results

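The 8 genes described here, *Plau*, *Plat*, *Plaur*, *Serpine2*, *Serpinb2*, *F3*, *F13a1* and *Thbs1*, belong to plasminogen activation and to clotting, and were taken by name from the 27719 genes and loci counted in the mouse colon. Total RNA from the colon of C57BL/6J mice was copied into full-length cDNA and read by Nanopore sequencing, in which each read can span a whole transcript. The control group (3 mice) drank distilled water, the DSS group (3 mice) drank 2.5% dextran sodium sulfate (DSS), which injures the colon epithelium, for 7 days, and the DSS + EA group (3 mice) drank the same DSS and received electroacupuncture (EA). EA was given at ST36, an acupoint below the knee, on both sides, at 2 Hz and 0.2 mA in daily sessions of 30 minutes for 5 days, the first after 5 days of modeling. Restraint lasted equally long (30 minutes) for control and DSS mice, which received no EA, so that the needles and the current cannot be told apart. Age and sex of the mice are not given in the sources used here. Between 2627695 and 4235576 reads were counted per mouse, with a median of 3229346 in the control, 3230895 in the DSS and 3259727 in the DSS + EA group. Levels are CPM (counts scaled to the same library total in each mouse) with totals adjusted by the TMM method of edgeR, and 3 counts were worth 0.652 to 1.15 CPM, depending on the mouse.

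Plasmin, the protease that dissolves fibrin and cuts matrix proteins, is made from plasminogen by urokinase (*Plau*), which works at cell surfaces bound to its receptor (*Plaur*), and by tissue plasminogen activator (*Plat*), which works on fibrin. Serpins stop the activators by forming covalent complexes with them. Tissue factor (*F3*) starts clotting when blood meets the tissue, and factor XIII (*F13a1* encodes its A subunit) crosslinks the fibrin that results. In the injured gut, fibrin is laid down and cleared while the mucosa is repaired.

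The promoters below are shown because the RefSeq promoter table holds them and 3 members carry the letters of an AP-1 element (TGANTCA, searched on both strands), in capitals. The table (GRCm38.p6) has entries for 5 of the 8 members, and each sequence is the 250 bases that precede the annotated start, 5′ to 3′ on the strand of the gene, at chr7:24462233-24462482 (*Plaur*, plus strand), chr3:121723287-121723536 (*F3*, plus strand) and chr1:107511173-107511422 (*Serpinb2*, first of its starts, plus strand).
Plaur: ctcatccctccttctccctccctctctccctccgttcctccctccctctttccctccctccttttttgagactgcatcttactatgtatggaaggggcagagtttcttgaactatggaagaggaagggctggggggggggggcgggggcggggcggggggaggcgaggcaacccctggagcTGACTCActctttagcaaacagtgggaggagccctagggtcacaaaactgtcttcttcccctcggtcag
F3: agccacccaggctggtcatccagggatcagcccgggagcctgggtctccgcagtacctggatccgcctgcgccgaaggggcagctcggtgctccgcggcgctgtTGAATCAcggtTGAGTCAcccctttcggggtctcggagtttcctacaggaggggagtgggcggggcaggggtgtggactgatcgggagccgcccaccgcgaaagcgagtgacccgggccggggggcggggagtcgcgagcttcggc
Serpinb2: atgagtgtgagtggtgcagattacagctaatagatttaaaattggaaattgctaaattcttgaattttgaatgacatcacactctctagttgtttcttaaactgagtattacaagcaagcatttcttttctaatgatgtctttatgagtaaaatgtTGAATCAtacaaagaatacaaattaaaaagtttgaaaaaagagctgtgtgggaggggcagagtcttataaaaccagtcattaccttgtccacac
The AP-1 letters lie 69 to 63 bases before the start in *Plaur*, 94 to 88 in *Serpinb2*, and at both 146 to 140 and 135 to 129 in *F3*. These letters are found in 6.75% of 32851 promoter windows of the same length. GC boxes (GGGCGG, either strand) numbered 3 in *Plaur*, 3 in *F3* and 6 in *Serpine2*, and 32.7% of windows hold at least 1. The *Serpinb2* window has TATAAA at 29 to 24 bases before the start, letters held by 12.4% of windows. The *Serpine2* and *F13a1* windows had no match to the AP-1 letters. No window of the 5 members matched the NF-kB pattern searched, which 7.25% of windows match. That pattern was GGGRNNYYCC, where R is A or G, Y is C or T and N is any base. NF-kB sites that depart from it were not searched for. A match is a description of the letters, and binding was not measured.

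Samples that stood apart are given before the results. Summed over 10 genes of the exocrine pancreas (*Prss2*, *Ctrb1*, *Cela2a* and others, chosen after their values were seen), the level was 40288 CPM in DSS + EA mouse 2 and 15451 CPM in DSS + EA mouse 3, against 439.5 CPM in DSS + EA mouse 1, at most 701 CPM in the control mice and at most 11.9 CPM in the DSS mice. With these genes removed from the table, the same numbers of members were called in all 3 comparisons, and the fold changes that rest on DSS + EA mouse 1 alone are given with the results. On the first principal component of the 12566 tested genes, which holds 57.8% of the variance, DSS mouse 1 (59.9) lay nearer to the other groups than DSS mice 2 (105) and 3 (119), with all control and DSS + EA mice below 0. The epithelial keratin gene *Krt8* and the smooth muscle gene *Tagln* had at least 733 and 1077 counts in every library. This shows epithelium and smooth muscle in each sample, but these genes do not single out the colon.

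Of the 8 members, 7 passed the filter on low counts and were tested in one edgeR quasi-likelihood fit over the 9 libraries, with p-values adjusted by Benjamini-Hochberg over 12566 genes and a gene called at an adjusted p under 0.05. *Serpinb2* was too low to test. *Plau* passed only through the DSS group, in which all 3 mice exceeded the cutoff of 3.10 CPM. It passed through the group where it is high, so that it had to differ. An exact permutation test of 3 mice against 3 cannot go below p = 0.1, so the fit across all genes was used. The 7 tested members were all higher in DSS than in control (6 of 6 without *Plau*), where 21.5% of all tested genes were called higher and 19.5% lower. Of the same 7, 6 fell with EA relative to DSS (5 of 6 without *Plau*), where 18.3% of all tested genes were called lower and 17.2% higher, and *F3* was not called. Against control, 2 members (*Plaur* and *Serpine2*) remained higher in DSS + EA, where 3.00% of all tested genes were called higher and 0.637% lower. The DSS samples are shared by the first 2 comparisons, so that their values stand side by side and are not independent of each other.

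**Figure D1:**
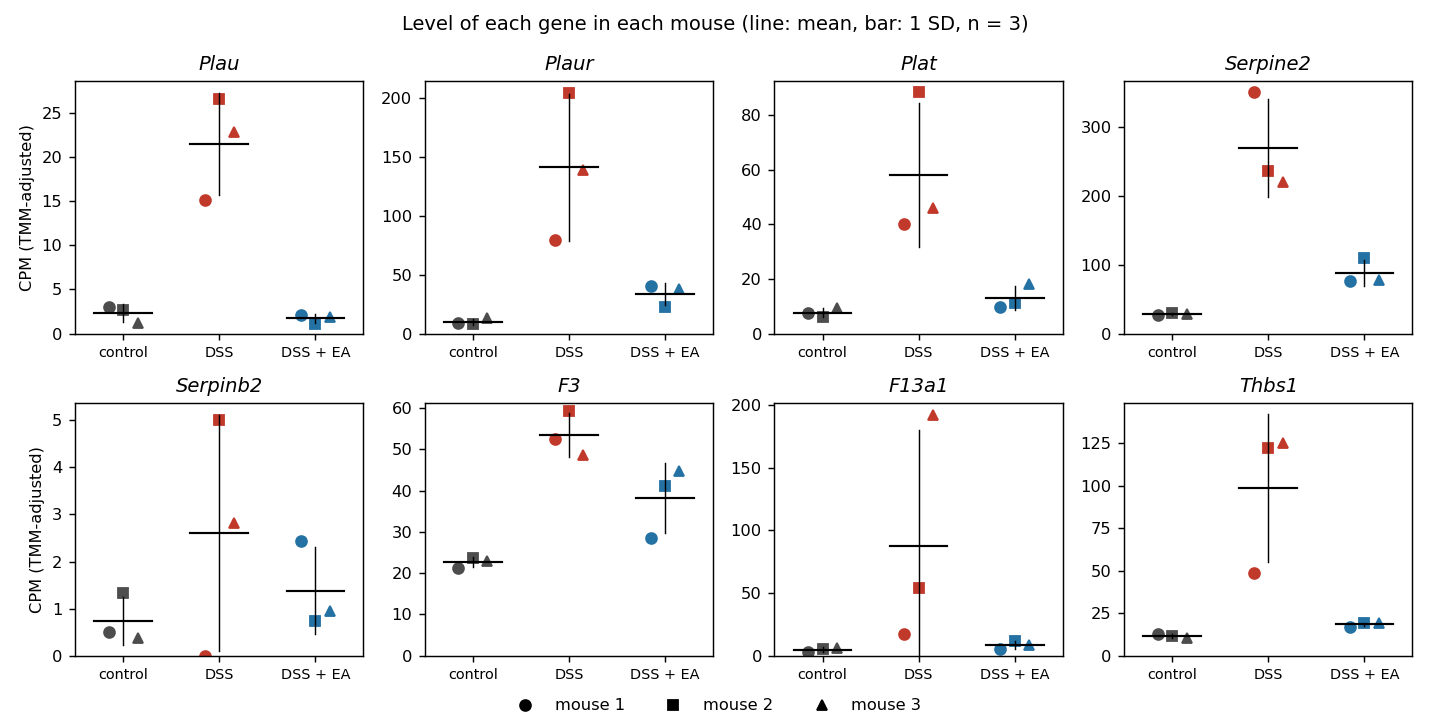
Level of each of the 8 genes in each mouse, as TMM-adjusted CPM on the vertical axes, with a point for each mouse, a line for the mean and a bar for 1 SD of each group of 3. All 3 DSS mice lie above all control and all DSS + EA mice for every gene except Serpinb2, whose DSS mouse 1 had 0 counts.

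*Plau*, the urokinase gene (ENSMUSG00000021822, chr14:20836660-20843385, plus strand, GRCm38) stood at 3.05, 2.66 and 1.15 CPM in the control mice, at 15.1, 26.5 and 22.8 CPM in the DSS mice and at 2.13, 1.12 and 1.90 CPM in the DSS + EA mice. The DSS mice did not overlap either of the other groups, and the control and DSS + EA mice overlapped. *Plau* was 9.01-fold higher in DSS than in control (log2 fold change 3.17, SE 0.38, edgeR adjusted p = 0.000265) and fell by 3.60 on the log2 scale with EA (SE 0.40, edgeR adjusted p = 0.000436). Its counts were few outside the DSS group, 23 in the 3 control mice together (95% Poisson interval 14.6 to 34.5) and 16 in the 3 DSS + EA mice (9.15 to 26.0), and the difference between these groups was not called (log2 fold change -0.43, SE 0.47, edgeR adjusted p = 0.698).

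*Plat*, the gene of tissue plasminogen activator (ENSMUSG00000031538, chr8:22757727-22782844, plus strand) stood at 7.62, 5.98 and 9.20 CPM in control, at 40.2, 88.4 and 45.9 CPM in DSS and at 9.74, 11.2 and 18.1 CPM in DSS + EA. All DSS mice were above all others, and all DSS + EA mice were above the control mice, the lowest of them only just. The gene was 7.67-fold higher in DSS than in control (log2 fold change 2.94, SE 0.38, edgeR adjusted p = 0.000382) and 4.47-fold lower in DSS + EA than in DSS (log2 fold change -2.16, SE 0.36, edgeR adjusted p = 0.00219). Between DSS + EA and control the log2 fold change of 0.78 (SE 0.38) did not pass the threshold (edgeR adjusted p = 0.338).

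*Plaur* (ENSMUSG00000046223, chr7:24462484-24475968, plus strand), the urokinase receptor, stood at 8.64, 7.98 and 13 CPM in control, at 79.8, 204 and 139 CPM in DSS and at 40.2, 22.4 and 38.1 CPM in DSS + EA. The 3 groups did not overlap, with DSS + EA between the other groups. *Plaur* was 14.3-fold higher in DSS than in control (log2 fold change 3.84, SE 0.40, edgeR adjusted p = 0.000138), and fell by 2.07 on the log2 scale with EA (SE 0.36, edgeR adjusted p = 0.00274). It remained 3.42-fold above control in DSS + EA (log2 fold change 1.77, SE 0.39, edgeR adjusted p = 0.0356). This call was lost with any 1 control mouse left out (edgeR adjusted p between 0.0593 and 0.173) and without DSS + EA mouse 1 (0.107) or 3 (0.151), while the log2 fold change stayed between 1.60 and 2.01.

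Among the serpins, *Serpine2* (ENSMUSG00000026249, chr1:79794197-79861180, minus strand) encodes protease nexin-1, an inhibitor of thrombin, urokinase and tissue plasminogen activator. It stood at 27.4, 29.9 and 28.7 CPM in control, at 351, 236 and 221 CPM in DSS and at 76.4, 109 and 77.4 CPM in DSS + EA. The 3 groups did not overlap, and DSS mouse 1 was the highest, unlike for any other member. *Serpine2* was 9.38-fold higher in DSS than in control (log2 fold change 3.23, SE 0.25, edgeR adjusted p = 3.06e-05), and 3.07-fold lower in DSS + EA than in DSS (log2 fold change -1.62, SE 0.23, edgeR adjusted p = 0.00113). Against control, DSS + EA was 3.05-fold higher (log2 fold change 1.61, SE 0.24, edgeR adjusted p = 0.00703), a call lost without control mouse 1 (log2 fold change 1.58, edgeR adjusted p = 0.0552).

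*Serpinb2* (ENSMUSG00000062345, chr1:107511423-107535478, plus strand) encodes plasminogen activator inhibitor 2, which inhibits urokinase. It was counted 2, 4 and 1 times in the control mice, 0, 23 and 9 times in the DSS mice and 8, 2 and 3 times in the DSS + EA mice, and all groups overlapped. Summed over the DSS mice the level was 4.0 times that of control (95% counting interval 1.73 to 10.7) and 2.06 times that of DSS + EA (1.05 to 4.27), intervals which cover counting error only and compare these libraries, not the treatments. Without DSS mouse 2 these ratios were 1.95 and 1.00. Without the filter, edgeR gave adjusted p = 0.165 for DSS against control and 0.494 for DSS + EA against DSS. *Serpinb10* overlaps this gene on the same strand and had 4 counts in all 9 libraries.

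On the clotting side, *F3* (ENSMUSG00000028128, chr3:121723537-121735048, plus strand) stood at 21.3, 23.6 and 23.0 CPM in control, at 52.4, 59.3 and 48.7 CPM in DSS and at 28.6, 41.1 and 44.7 CPM in DSS + EA. The groups did not overlap, although DSS + EA mouse 3 came close to DSS mouse 3. *F3* had the smallest change among the tested members, 2.36-fold higher in DSS than in control (log2 fold change 1.24, SE 0.21, edgeR adjusted p = 0.00157). With EA the log2 fold change was -0.49 (SE 0.21), which did not pass after adjustment (edgeR adjusted p = 0.0899, unadjusted p = 0.0400), with all 3 DSS + EA mice below all 3 DSS mice. Against control, DSS + EA was not called (log2 fold change 0.75, SE 0.21, edgeR adjusted p = 0.0920), but passed when only these groups were fitted (log2 fold change 0.76, edgeR adjusted p = 0.0463).

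*F13a1* (ENSMUSG00000039109, chr13:36867178-37050244, minus strand) stood at 2.80, 5.32 and 6.51 CPM in control, at 17.4, 53.9 and 192 CPM in DSS and at 5.48, 11.6 and 8.56 CPM in DSS + EA. The DSS mice were above all others but differed 11-fold among themselves. *F13a1* was 18.3-fold higher in DSS than in control (log2 fold change 4.19, SE 0.81, edgeR adjusted p = 0.00293) and 10.3-fold lower in DSS + EA than in DSS (log2 fold change -3.36, SE 0.76, edgeR adjusted p = 0.00848). Without DSS mouse 3 these values were 2.91 (edgeR adjusted p = 0.00329) and -2.08 (edgeR adjusted p = 0.0151), so that both calls remained without the highest mouse. The control and DSS + EA mice overlapped (log2 fold change 0.83, SE 0.82, edgeR adjusted p = 0.663). Antisense genes *Gm49144* and *Gm30489* overlap *F13a1*, and whether the counting used strand is not given in the sources used here.

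*Thbs1* (ENSMUSG00000040152, chr2:118111876-118127133, plus strand) encodes thrombospondin 1, a matrix protein released from platelets and made by many cell types. It stood at 13, 11.6 and 10.3 CPM in control, at 48.6, 122 and 125 CPM in DSS and at 17.0, 19.0 and 19.0 CPM in DSS + EA. All DSS mice lay above all others, and the DSS + EA mice lay close together above the control mice. *Thbs1* was 8.43-fold higher in DSS than in control (log2 fold change 3.07, SE 0.35, edgeR adjusted p = 0.000200) and 5.37-fold lower in DSS + EA than in DSS (log2 fold change -2.42, SE 0.34, edgeR adjusted p = 0.0010). It was not called between DSS + EA and control (log2 fold change 0.65, SE 0.34, edgeR adjusted p = 0.378). The lincRNA gene *Gm29233* overlaps it on the opposite strand.

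**Figure D2:**
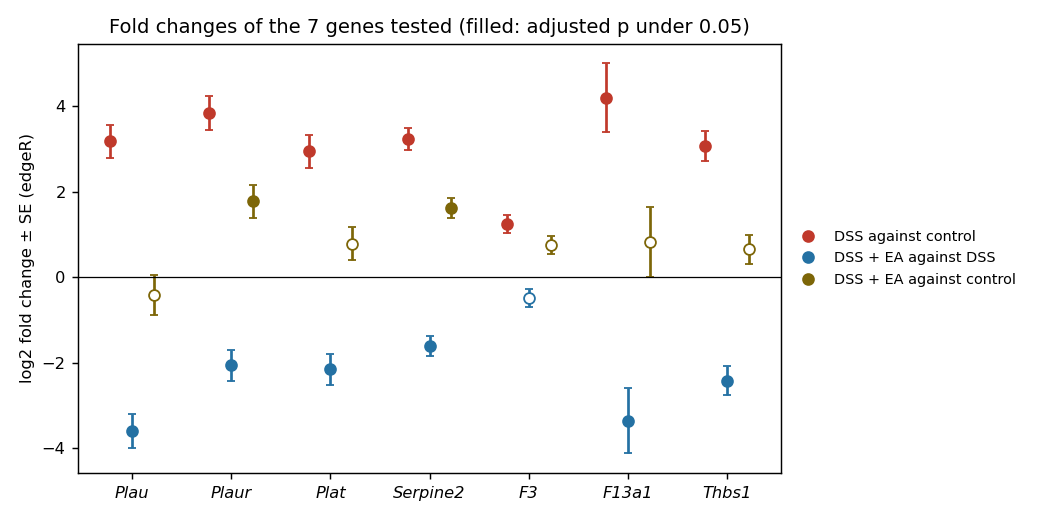
Log2 fold changes of the 7 tested members with their standard errors on the vertical axis, for each of the 3 comparisons, with filled points for genes called at an edgeR adjusted p under 0.05. Values for DSS against control lie above 0, from 1.24 (F3) to 4.19 (F13a1), and those for DSS + EA against DSS lie below 0, with F3 (-0.49) not called.

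By the rule in the methods of the study (a log2 fold change beyond 2.5 and an unadjusted P under 0.01), which the study used on DESeq2 values and which was used here on those of edgeR, 6 members were higher in DSS than in control, all tested members but *F3*, where 6.62% of all tested genes were. By that rule 2 members, *Plau* and *F13a1*, were lower in DSS + EA than in DSS, where 3.50% of genes were, and 0 members differed between DSS + EA and control, where 1.74% of genes were higher. In that comparison edgeR gave 3 members an unadjusted p under 0.05, all higher (10.6% of all tested genes), and DESeq2 called 2 higher (2.54% of the 22099 genes it fitted). Groups of mice did not overlap for 7 members in DSS against control, all higher (26.2% of all tested genes), and for 7 members in DSS + EA against DSS, all lower (23.3%). *Plau*, which passed the filter only through the DSS group and so had to differ, is counted in both numbers. It is also counted in the numbers by the study's rule for these 2 comparisons. In DSS + EA against control, 5 members (*Plaur*, *Plat*, *Serpine2*, *F3* and *Thbs1*) were higher in all 3 DSS + EA mice than in any control mouse (18.0% of all tested genes). With DSS + EA mouse 1 alone for its group, the calls of DSS + EA against DSS were *Plau* (log2 fold change -3.29), *Plat* (-2.56) and *Serpine2* (-1.80), while *Plaur* (-1.79, edgeR adjusted p = 0.0949), *F13a1* (-3.97, edgeR adjusted p = 0.113) and *Thbs1* (-2.51, edgeR adjusted p = 0.0503) were below 0 and missed the threshold in a fit that takes the lone mouse to vary like the other groups.

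Levels of different genes were ordered both by CPM and by CPM divided by the length of the longest coding transcript, since a read that spans a transcript counts it once whatever its length, while reads of fragments would scale with length, and the share of full-length reads is not known here. By its mean *Serpine2* came first in all 3 groups on both scales (28.7, 269 and 87.7 CPM in control, DSS and DSS + EA), and *Plau* (2.29, 21.5 and 1.72 CPM) and *Serpinb2* (0.740, 2.60 and 1.38 CPM) came last. In control and DSS + EA *Plau* and *Serpinb2* overlapped, in DSS + EA on 16 and 13 counts in all. *Plau* also overlapped *F13a1* in control and in DSS on both scales, and *Thbs1* in DSS per kb only. In control *F3* was second (22.6 CPM, or 12.1 CPM per kb beside 13 for *Serpine2*, whose mice overlapped per kb only), and *Plaur*, *Plat* and *Thbs1* changed places with the scale. By CPM *Thbs1* (11.6), *Plaur* (9.88) and *Plat* (7.60) overlapped neighbour by neighbour, and per kb *Plaur* (6.56) lay above *Plat* (3.01) and *Plat* above *Thbs1* (1.99) in every mouse. In DSS *Plaur* was second (141 CPM, or 93.6 CPM per kb beside 122 for *Serpine2*), and mice of these genes overlapped per kb but not by CPM. Next by CPM were *Thbs1* (98.7), *F13a1* (87.7), *Plat* (58.2) and *F3* (53.5), which overlapped neighbour by neighbour and stood in the opposite order per kb, so that no order among these 4 holds on both scales. In DSS + EA *Plaur* (33.6 CPM) and *F3* (38.1 CPM) overlapped on both scales and were followed by *Thbs1* (18.4 CPM) and *Plat* (13 CPM), whose order also turned with the scale, and by *F13a1* (8.54 CPM). On both scales *Plaur* stood below *F3* in every control mouse and above it in every DSS mouse.

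The members did not vary alike within the DSS group. DSS mouse 1 was the lowest in 6 of the 8 genes and DSS mouse 2 the highest in 5. The highest DSS mouse was 2.58 times the lowest for *Thbs1*, 2.56 times for *Plaur*, 2.20 times for *Plat*, 1.75 times for *Plau*, 1.59 times for *Serpine2* and 1.22 times for *F3*. The coefficient of variation over the DSS mice was 10.1% for *F3* and 105% for *F13a1*. Over the 9 libraries, Pearson correlations of log2 CPM between the 7 tested members lay between 0.685 (*Plau* with *F3*) and 0.951 (*Plat* with *Thbs1*), values to which the 3 groups themselves contribute. Among the genes most alike in pattern over these 9 libraries were *Pim1* for *Thbs1* (r = 0.993), *Mphosph6* for *Serpine2* (0.990), *U90926* for *Plaur* (0.989), *Man2a1* for *Plat* (0.989), *Vsir* for *F13a1* (0.986), *Anp32e* for *F3* (0.986), *Ccnb1ip1* for *Plau* (0.985) and *Acap1* for *Serpinb2* (0.929).

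Of 16 other genes of the plasminogen system, 11 were tested, and 3 rose and 2 fell in DSS against control (median log2 fold change 0.38, beside 0.02 over all tested genes). These numbers are near the shares over all tested genes, 21.5% higher and 19.5% lower. *Lrp1*, an endocytic receptor that clears activator and serpin complexes, rose by a log2 fold change of 2.40 (SE 0.26, edgeR adjusted p = 0.000149) and fell by 2.20 on the log2 scale with EA (SE 0.25, edgeR adjusted p = 0.000486). *Eno1*, a glycolytic enzyme that can bind plasminogen, and *Mrc2*, a collagen receptor, were the other genes called higher (log2 fold changes 1.02 and 1.82). *Mrc2*, for which no control mouse exceeded the cutoff on low counts, was not called without control mouse 2 or 3 or DSS mouse 2, nor by DESeq2. *Plgrkt*, a membrane receptor for plasminogen, fell in DSS (log2 fold change -1.28, edgeR adjusted p = 0.00520) and rose with EA (1.10, edgeR adjusted p = 0.0130), as did *St14*, an epithelial membrane protease (-1.25 and 1.38, edgeR adjusted p = 0.0152 and 0.0123). With EA relative to DSS 2 of the 11 genes rose and 1 fell (median 0.04, beside -0.02 over all tested genes). With a mouse left out 2 to 3 rose and 1 to 2 fell, *Mrc2* being called lower without DSS + EA mouse 2 (-1.65, edgeR adjusted p = 0.0489). Against control only *Eno1* of the 11 was called (0.89, edgeR adjusted p = 0.0320). This call was lost with any 1 control or DSS + EA mouse left out. *Plg*, the gene of plasminogen itself, and *Serpina5* had 0 counts in all libraries, and *Anxa2* was the most abundant of the list.

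Of 15 clotting factor and fibrinogen genes, 2 passed the filter of the edgeR fit, *F10* (factor X) and *Vwf* (von Willebrand factor), and both were called higher in DSS and lower with EA. DESeq2, run without that filter, called 6 higher in DSS (*F10*, *Vwf*, *F7*, *Fga*, *Fgb* and *Fgg*) and 1 lower (*F2*, prothrombin). Of the 22099 genes it fitted, 13.9% were called higher and 11.8% lower. With EA it called 4 lower (*F10*, *Vwf*, *F7* and *Fgb*) and *F2* higher, beside 10.9% lower and 10.1% higher of all genes fitted. *F7*, *Fga*, *Fgb* and *Fgg* had 0 counts in control and *F2* had 0 in DSS, so that their calls in DSS rest on the counts of 1 group. *F2* was counted 3, 3 and 7 times in control, 0 times in all DSS mice and 4, 4 and 3 times in DSS + EA. *F10* was counted 1, 1 and 0 times in control, 11, 81 and 577 times in DSS and 11, 3 and 4 times in DSS + EA. Like *F13a1*, it was highest in DSS mouse 3 by a wide margin, and its lowest DSS mouse and highest DSS + EA mouse both had 11 counts (DSS against control edgeR adjusted p = 0.00459, DSS + EA against DSS 0.0134). *F10* passed the filter through the 3 DSS mice and DSS + EA mouse 1, so that its DSS group had to be high. The fall with EA was not called without DSS + EA mouse 3, and without DSS mouse 3 the log2 fold changes moved from 8.08 to 5.46 and from -5.07 to -2.45. *Vwf* had log2 fold changes of 2.04 (SE 0.34, edgeR adjusted p = 0.00139) and -1.81 (SE 0.34, edgeR adjusted p = 0.00348). *F9*, *F11* and *F13b*, the gene of the other factor XIII subunit, had 0 counts in every library. Among 10 natural anticoagulant genes, 7 were tested, of which 3 rose and 1 fell in DSS (median log2 fold change 0.32) and 2 fell with EA (median -0.03). *Serpina10*, an inhibitor of factor X, did not pass the filter with all mice, but was called higher in DSS + EA than in DSS by DESeq2 and in 7 of 9 fits with a mouse left out, all but those without DSS + EA mouse 1 or 3. It was counted 2, 2 and 2 times in control, 1, 0 and 0 times in DSS and 12, 3 and 11 times in DSS + EA, and in those edgeR fits it passed the filter only through DSS + EA mice, so that it had to differ. *Pros1* (protein S) and *Tfpi* (the inhibitor of tissue factor) rose in DSS (2.29 and 1.27, edgeR adjusted p = 0.000493 and 0.00313) and fell with EA (-1.07 and -1.04, edgeR adjusted p = 0.0179 and 0.0101). *Pros1* lost this call without DSS mouse 3 or DSS + EA mouse 2 or 3. *Procr*, the protein C receptor, rose in DSS (1.11, edgeR adjusted p = 0.00850), whereas *Proc* (protein C) fell (-3.45, edgeR adjusted p = 0.00296) from counts of 18, 13 and 20 to 4, 1 and 0, with 7, 5 and 6 in DSS + EA. *Proc* passed the filter only through the control group, where it is highest, and was called higher with EA without DSS mouse 1.

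Of the 4 protease-activated receptor genes, 2 were tested, and *F2rl1*, which encodes a receptor cut by trypsin-like proteases, fell in DSS (log2 fold change -1.44, edgeR adjusted p = 0.0159) and rose with EA (1.35, edgeR adjusted p = 0.0246). The first call was lost without DSS mouse 2, and the second without DSS mouse 2 or DSS + EA mouse 1 or 2. *F2r*, the thrombin receptor, was not called (0.78, edgeR adjusted p = 0.0767, and -0.19, edgeR adjusted p = 0.655). *F2rl3* did not pass the filter with all mice. It was called higher in DSS without control mouse 3 (2.39, edgeR adjusted p = 0.0388) or DSS mouse 1 (2.04, edgeR adjusted p = 0.0244). Without DSS mouse 1 it was also called lower with EA (-1.71, edgeR adjusted p = 0.0464). In these fits *F2rl3* passed the filter only through DSS mice, so that it had to differ. Among 6 genes of other thrombospondins and their receptors, 5 were tested and 2 rose in DSS, *Thbs2* (1.39, edgeR adjusted p = 0.00982) and *Cd47* (1.94, edgeR adjusted p = 0.0167). *Cd47* was not called without control mouse 1 or 2 or DSS mouse 3. With EA *Thbs2* fell (-1.42, edgeR adjusted p = 0.0113). *Thbs3* was just past the threshold (-1.31, edgeR adjusted p = 0.0441) and was not called in 8 of 9 fits with a mouse left out, all but that without DSS + EA mouse 2 (log2 fold change -2.02 to -0.97).

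**Figure D3:**
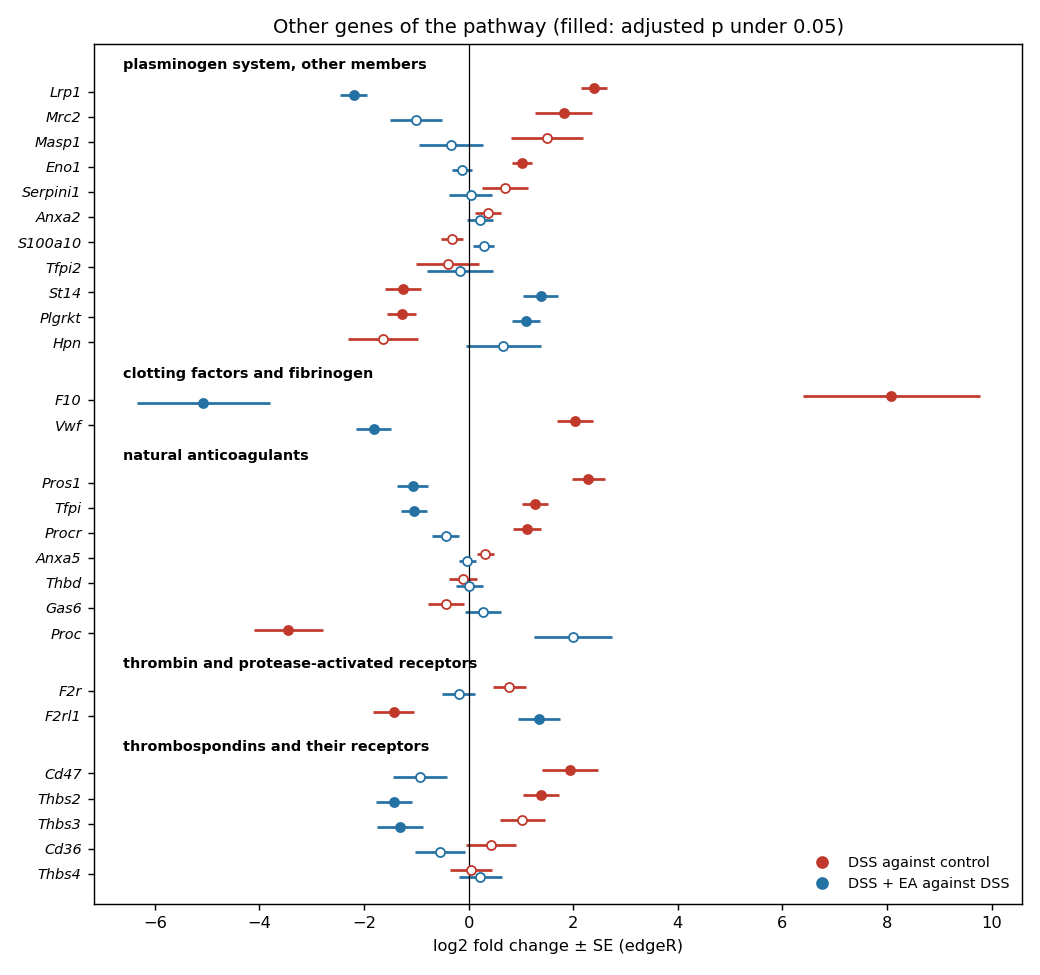
Log2 fold changes of the tested genes of the 5 pathway lists, in red for DSS against control and in blue for DSS + EA against DSS, on the horizontal axis with standard errors, with filled points for genes called at an edgeR adjusted p under 0.05. F10 lies farthest from 0, and Plgrkt, St14 and F2rl1, called in both comparisons, lie on the opposite side of 0 from the members.

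Markers of several cell types moved with the members, and in bulk tissue fewer cells of a type and less RNA per cell cannot be told apart. All 7 tested neutrophil markers rose in DSS (of 8) and 5 fell with EA. Their summed level was 135, 160 and 23.8 CPM in control, 4499, 23468 and 26988 CPM in DSS and 1489, 1210 and 1603 CPM in DSS + EA, with *S100a8* the most abundant. DSS mouse 1 was the lowest DSS mouse here as it was for 6 members, and 6 of the 7 markers were called higher in DSS + EA than in control. That number was 2 to 7 with a mouse left out, and 2 or 3 where the mouse was a control or DSS + EA mouse. Among monocyte and macrophage markers, 7 of 9 rose in DSS (6 to 8 with a mouse left out) and 4 fell with EA. The number that fell was 2 without DSS + EA mouse 1 or 2, and between 3 and 6 without any other mouse. Summed levels were 462, 510 and 456 CPM in control, 1270, 1547 and 2532 CPM in DSS and 959, 848 and 1011 CPM in DSS + EA, with *Lyz2* the most abundant. Fibroblast markers rose for 6 of 7 and fell with EA for 4, at 780, 841 and 853 CPM in control, 4097, 4885 and 6810 CPM in DSS and 1739, 1626 and 1677 CPM in DSS + EA, with *Dcn* the most abundant. Endothelial markers rose for 6 of 7 in DSS (4 to 6 with a mouse left out) and fell with EA for 5. Their sums were 70.4, 77.8 and 66.3 CPM in control, 159, 207 and 216 CPM in DSS and 85.5, 92.3 and 89.8 CPM in DSS + EA, with *Egfl7* the most abundant. Called higher in DSS + EA than in control were 1 of 9 monocyte and macrophage markers (1 to 4 with a mouse left out). The same held for 3 of 7 fibroblast markers (1 to 5 with a mouse left out) and 0 of 7 endothelial markers. The part of these cell types in the changes of the 8 genes was not tested.

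Platelets also hold the products of *Thbs1* and *F13a1*. Of 10 platelet and megakaryocyte markers, 2 were tested. *Pf4*, the most abundant, was counted 176, 127 and 140 times in control, 1022, 2996 and 3278 times in DSS and 106, 175 and 96 times in DSS + EA, with log2 fold changes of 3.83 (SE 0.45, edgeR adjusted p = 0.000236) and -3.97 (SE 0.45, edgeR adjusted p = 0.000472). *Itga2b* was not called in DSS (1.23, edgeR adjusted p = 0.0505) and was just past the threshold with EA (-1.39, edgeR adjusted p = 0.0397). This call was lost in 7 of 9 fits with a mouse left out, all but those without DSS mouse 1 or DSS + EA mouse 2, whereas *Itga2b* was called higher in DSS without DSS + EA mouse 2 or 3. It passed the filter through the 3 DSS mice and 1 DSS + EA mouse, with no control mouse over the cutoff. The list summed to 47.5, 45.2 and 58.6 CPM in control, 339, 663 and 1038 CPM in DSS and 36.5, 70.6 and 33.0 CPM in DSS + EA, nearly all of it *Pf4*. Its defining membrane genes *Gp1ba*, *Gp5*, *Gp6*, *Gp9* and *Treml1* had at most 5 counts in any library. The chemokine gene *Ppbp* was counted 0 times in control, 1, 16 and 20 times in DSS and 0, 1 and 0 times in DSS + EA, a DSS level at least 10.8-fold higher than a floor of 3 counts over the control group (7.02 without DSS mouse 3). It passed the filter and was called higher in DSS in 7 of 9 fits with a mouse left out, all but those without DSS mouse 2 or 3, and by DESeq2. DESeq2 also called it lower with EA, as did the fits without DSS mouse 1 or any 1 control mouse. In those edgeR fits it passed only through DSS mice, the group where it is high, so that it had to differ. *Gp1bb* had 1, 0 and 4 counts in control, 8, 9 and 2 in DSS and 5, 2 and 4 in DSS + EA. *Clec1b* had at most 4 counts in any library.

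In the other direction, 4 of 7 colon epithelial markers fell in DSS (3 to 6 with a mouse left out). With EA 2 rose (1 to 5 with a mouse left out, the most without DSS mouse 1, and 4 by DESeq2). Summed levels were 3384, 3236 and 3841 CPM in control, 2508, 1387 and 522 CPM in DSS and 3535, 2582 and 3038 CPM in DSS + EA, with *Krt8* the most abundant. DSS mouse 3, the highest in *F13a1* and *F10*, was the lowest here. Smooth muscle markers fell for 5 of 6 in DSS (3 without control mouse 1 or 2) and rose for 1 with EA (3 without DSS mouse 3), at 3526, 3377 and 2844 CPM, then 1802, 1136 and 2176 CPM, then 2273, 2210 and 2241 CPM, with *Tagln* the most abundant. None of 7 squamous markers passed the filter with all mice. Without DSS mouse 1, *Dsg3* was called higher in DSS (2.14, edgeR adjusted p = 0.0241) and lower with EA (-3.22, edgeR adjusted p = 0.00797). In that fit it passed the filter only through DSS mice, so that it had to differ. Of 6 hepatocyte markers, which are listed because the liver makes most clotting factors, 1 was tested, *Ttr*, and it was not called in DSS (-1.96, edgeR adjusted p = 0.0685) or with EA (1.40, edgeR adjusted p = 0.181). It was called lower in DSS by DESeq2, with the replicate block and without control mouse 3 or DSS mouse 1, and higher with EA without DSS mouse 1. *Alb* had at most 7 counts in any library.

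**Figure D4:**
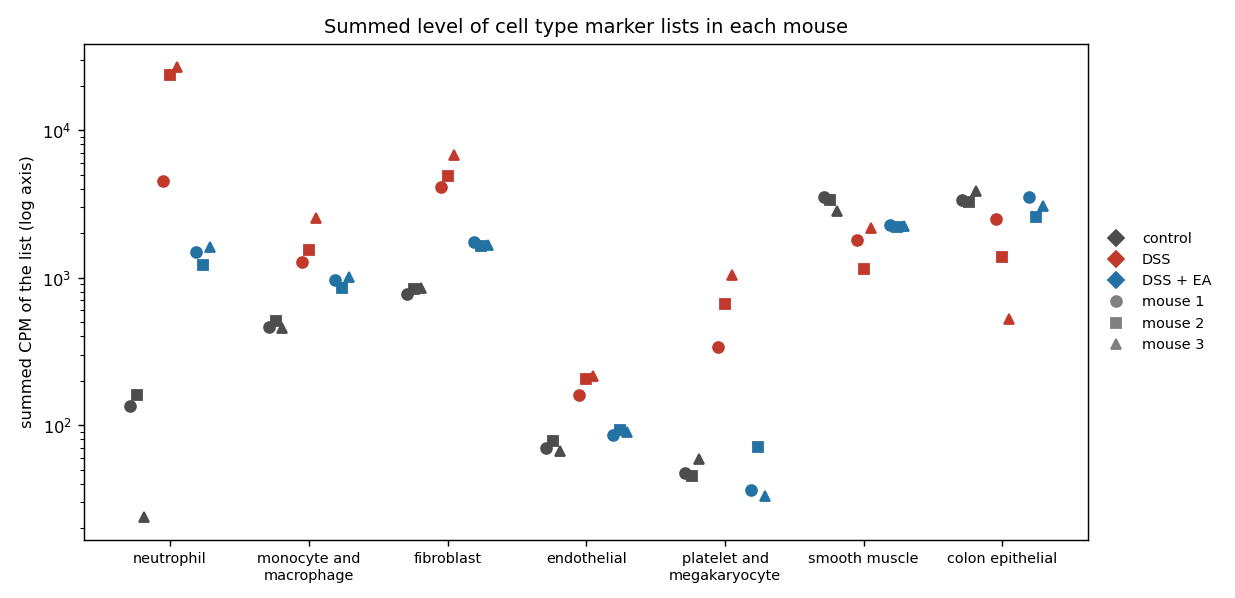
Summed level of each cell type marker list in each mouse, in TMM-adjusted CPM on log axes, with points for mice of the 3 groups. Neutrophil, macrophage, fibroblast, endothelial and platelet lists are highest in the 3 DSS mice, and smooth muscle and epithelial lists are lowest in DSS mice.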

How the data were processed

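Colon RNA of 9 mice, 1 library each, was measured by Nanopore full-length cDNA sequencing with PCR. The authors deposited whole-number read counts per gene, not normalized. The submitters' processing notes name mm10, and the aligner, counting tool, annotation and use of strand are not given in the sources used here. Of 27733 lines, 14 held no counts and were skipped, and 5620 of the 27719 genes and loci used had no count. PCR copies were not told apart, so intervals and the floor of 3 counts cover counting error only. The labels do not say more of the replicates than that each library is a separate sample.

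Counts were fitted in R 4.3.3 with edgeR 4.0.16 (TMM, filterByExpr by group with a minimum count of 10, prior count 0.125, quasi-likelihood F test), with the group as the only term, over 12566 genes. The study's methods name DESeq2, which was run as an alternative (version 1.42.0). Standard errors are the log2 fold change divided by the square root of F. Correlations used log2 CPM with a prior count of 2. The functions were tested on simulated counts. Levels by CPM beside CPM per kb were added after the data were seen. Positions and transcript lengths are from GENCODE M21 (GRCm38), promoters from RefSeq. Python 3.11.15 was used for the tables and figures.

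The members, the gene lists and the tests were chosen with earlier results of these data known. Named are the members, from each list up to 4 tested genes with the smallest P over the 3 groups, the most abundant gene and genes at 0, and 1 of the 2 genes most alike in pattern to each member. Some marker genes that these rules take in are counted but not named. Others are not reported here and are not counted. *St14*, *Mrc2*, *Serpina10*, *F2rl3*, the untested platelet and clotting genes, *Alb*, the overlapping genes and those in the closing section were chosen after their values were seen. Alternatives were DESeq2, RLE factors, library totals, no filter on low counts, fits of only the 2 groups compared, a mean of at least 20 counts, the study's call rule on edgeR values, glmTreat against a log2 fold change of 1, a prior count of 2, the replicate number as a block and each mouse left out. Removal of pancreatic genes and DSS + EA mouse 1 alone were added after the data were seen. Groups of 3 are not tested for single outlying mice.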

Additional observations from a re-analysis of the deposited data

How the results depend on the processing

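Of 398 values of the tested members under the choices not added after the data were seen, 378 kept their direction and their side of the threshold, 19 no longer passed, 1 newly passed and 0 reversed, and of 42 values with pancreatic genes removed or with DSS + EA mouse 1 alone, 37 did and 5 no longer passed. All 7 tested members were called higher in DSS than in control in each of the 9 fits that left out a mouse, and 6 were called lower in DSS + EA than in DSS in each. Both numbers include *Plau*, which passed the filter of the main fit only through the DSS group. *F3* in DSS against control did not pass glmTreat (edgeR adjusted p = 0.198). Members called lower in DSS + EA than in DSS numbered 2 by the study's rule and 3 with DSS + EA mouse 1 alone. Members called higher in DSS + EA than in control numbered 1 with library totals and with a mean of at least 20 counts, 0 with glmTreat, by the study's rule and with DSS + EA mouse 1 alone, and 0 to 2 with a mouse left out. *Plaur* lost this call with library totals (log2 fold change 1.74, edgeR adjusted p = 0.0589) and a mean of at least 20 counts (1.72, edgeR adjusted p = 0.0508), and the cause was not tested.

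Over all genes, 5144 were called in DSS against control, 1963 with glmTreat and 1280 by the study's rule (4090 to 6400 with a mouse left out). In DSS + EA against DSS, 4457 were called, 1248 with glmTreat, 806 by the study's rule and 807 with DSS + EA mouse 1 alone (3033 to 6061 with a mouse left out). In DSS + EA against control, 457 were called, 697 with DESeq2, 1149 with only the 2 groups fitted, 119 with glmTreat, 261 by the study's rule and 54 with DSS + EA mouse 1 alone (110 to 772 with a mouse left out, the fewest without control mouse 1 and the most without DSS mouse 1). Calls in this comparison were 82.5% higher, and 68.8% higher with only the 2 groups fitted. The median log2 fold change of DSS + EA against DSS was -0.02 over the genes tested and -0.17 over the 22099 genes DESeq2 fitted.

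With the replicate block, 4543, 3829 and 364 genes were called in the 3 comparisons, and 1 member, *Serpine2*, was called higher in DSS + EA than in control, with *Plaur* at a log2 fold change of 1.79 (edgeR adjusted p = 0.0660). Mice of the same number are different animals, and their deviations from the group means correlated between -0.16 and 0.11. Of 18 best partners, 2 had the same number. With 3 mice per group this check cannot exclude a factor shared by mice of the same number.

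Depth limits *Serpinb2* and the DSS + EA and control levels of *Plau* and *F10*, where a mouse often had under 10 counts.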

Other observations

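The fibrinogen genes, whose product factor XIII crosslinks, were chosen after their values were seen and did not pass the filter of the edgeR fit. *Fgb* was counted 86, 10 and 6 times in the DSS mice, 0 times in the control mice and 2, 2 and 2 times in the DSS + EA mice. Its DSS level was at least 29.8-fold higher than a floor of 3 counts over the control group, and 14.2 times that of DSS + EA (95% counting interval 6.30 to 39.6, counting error only). DSS mouse 1 carries both values, which without it were 6.53 and 3.11. *Fgg* was counted 22, 4 and 4 times and *Fga* 14, 4 and 1 times in the DSS mice, and both had 0 counts in control. In DSS + EA *Fgg* was counted 1, 3 and 1 times and *Fga* 0, 0 and 2 times, and their CPM overlapped with DSS. Neither was called with EA (DESeq2 adjusted p = 0.150 and 0.211). All 3 genes were highest in DSS mouse 1, as was *Serpine2*, whereas *F13a1* and *F10* were highest in DSS mouse 3. *F7* (factor VII, the partner of tissue factor) was counted 4, 5 and 18 times in the DSS mice and 0 times in all other mice, a level at least 7.88-fold higher than the floor over the control group and at least 7.52-fold higher than that over the DSS + EA group (3.72 and 3.55 without DSS mouse 3).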
